A study of Mus musculus with 12 samples.

Results

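Agouti and 9 genes that lie near it on mouse chromosome 2 were followed in whole ovaries of lethal yellow mice. The neighbours were Chmp4b, Raly and Eif2s2 on one side and Ahcy, Itch, Dynlrb1, Map1lc3a, Pigu and Ncoa6 on the other, in that order along the chromosome in the GRCm38.p6 annotation of RefSeq. A probe was taken for a gene when the platform annotation named that gene and no other, which gave 13 probes for the 10 genes, out of 21615 such probes for 18069 genes. Raly had 2 probes, Itch had 3, and each of the other genes had 1. The expression of these genes was measured in 4 groups of 3 female mice, with 1 array per mouse: 180-day LY mice, 180-day black mice, 90-day LY mice and 90-day black mice. LY mice carried Ay and a (strain given as C56BL/6J Ay/a in the labels and as C57BL/6 in the methods), and black mice carried a on both chromosomes (C56BL/6J a/a). All of them were treated with the GnRH antagonist Antide (10 microg/g on days 1 and 4) and then with eCG, a gonadotropin that stimulates follicle growth (1 IU/5 g body weight), and the ovaries were collected on day 7. The mice came from one breeding colony, every black mouse was itself homozygous for the nonagouti allele a, and no mouse with a wild-type agouti allele was included.

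The agouti gene encodes a secreted protein that blocks melanocortin receptors and in normal mice is made mainly in skin, where it switches hair pigment from black to yellow. Ay is a deletion that begins in Raly, removes Eif2s2, and joins the promoter of Raly to the coding part of agouti, so that agouti is made throughout the body under the control of a promoter that is active in most tissues. An Ay/a mouse therefore keeps 1 intact copy of Raly and of Eif2s2, on its a chromosome, and embryos with Ay on both chromosomes die. The neighbours beyond the deletion are present on both chromosomes of LY and black mice alike.

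The GRCm38.p6 genome is that of C57BL/6J and holds the a chromosome, not the Ay deletion. The 250 bases before the annotated starts of Raly and of agouti, taken from RefSeq, are shown because Ay puts agouti under the promoter of Raly in place of its own. Both are on the plus strand, at chr2:154790860-154791109 for Raly and chr2:155013320-155013569 for agouti. Capitals mark CG dinucleotides.
Raly promoter: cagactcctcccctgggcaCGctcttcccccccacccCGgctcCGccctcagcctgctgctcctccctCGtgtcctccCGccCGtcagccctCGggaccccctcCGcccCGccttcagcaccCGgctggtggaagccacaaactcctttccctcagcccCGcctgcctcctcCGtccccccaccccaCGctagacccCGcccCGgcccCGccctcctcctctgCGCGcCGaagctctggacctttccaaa
agouti promoter: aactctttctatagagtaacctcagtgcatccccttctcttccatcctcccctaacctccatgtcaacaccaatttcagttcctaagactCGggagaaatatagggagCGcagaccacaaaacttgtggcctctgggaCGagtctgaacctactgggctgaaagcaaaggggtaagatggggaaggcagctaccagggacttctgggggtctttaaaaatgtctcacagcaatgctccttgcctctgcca

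The Raly window was rich in CG and the agouti window was not. It held 19 CG dinucleotides with a GC content of 72.8%, and 80.3% of the 32851 mouse promoter windows of the same length held fewer. The agouti window held 3 CG dinucleotides with a GC content of 50%, and 29.0% of windows held fewer. The GC box GGGCGG, read on both strands, occurred 5 times in the Raly window and 0 times in the agouti window, against at least 1 match in 32.7% of all windows. The letters TATAAA were in neither window on either strand, and 12.4% of all windows held them.

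Ovarian markers were present throughout. The theca cell marker Cyp17a1 lay between 89.8 and 227 relative intensity units on all 12 arrays, and the granulosa cell marker Inha lay between 48.3 and 159 units. These units are each array's background-corrected intensity divided by the array's median, and 0.2 units is the limit of sensitivity that the methods state. Intensities of different probes were not compared, because probes differ in brightness. Summed markers of granulosa cells (4 of 5 listed genes with a probe) ranged from 61.4 to 90.8 units in 180-day LY ovaries and from 91.8 to 118 units in 180-day black ovaries. Summed markers of oocytes (3 of 3) ranged from 23.7 to 36.8 units in 180-day LY ovaries and from 40.0 to 53.7 units in 180-day black ovaries. These sums add units of unlike probes, so the brightest probe weighs most. The granulosa sum came mostly from Inha (180-day means of 66.4 units in LY and 83.1 units in black ovaries). No granulosa marker was free of overlap by itself at 180 days, and the mean of Amh was higher in LY (1.26 against 1.18 units). The oocyte sum came mostly from Zp3, the only oocyte marker without overlap at 180 days. At 90 days both sums overlapped, with 125 to 175 units in LY and 126 to 179 units in black ovaries for granulosa cells, and 37.8 to 42.8 units in LY and 31.0 to 42.5 units in black ovaries for oocytes. In a whole ovary, fewer cells of a type and less RNA per cell cannot be told apart, and the part of these marker differences in the values below was not tested. The 90-day arrays were run after the 180-day arrays, so the ages and the array sets cannot be told apart either.

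Agouti had the largest log2 difference of all probes tested. Its probe (226017) read 96.7, 101 and 111 units in 180-day LY ovaries, against 0.169, 0.368 and 0.345 units in 180-day black ovaries. In 90-day LY ovaries it read 95.7, 99.2 and 96.8 units, against 0.280, 0.313 and 0.291 units in 90-day black ovaries. All LY ovaries were far above all black ovaries, and within each genotype the values at 180 and at 90 days overlapped.

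**Figure D1:**
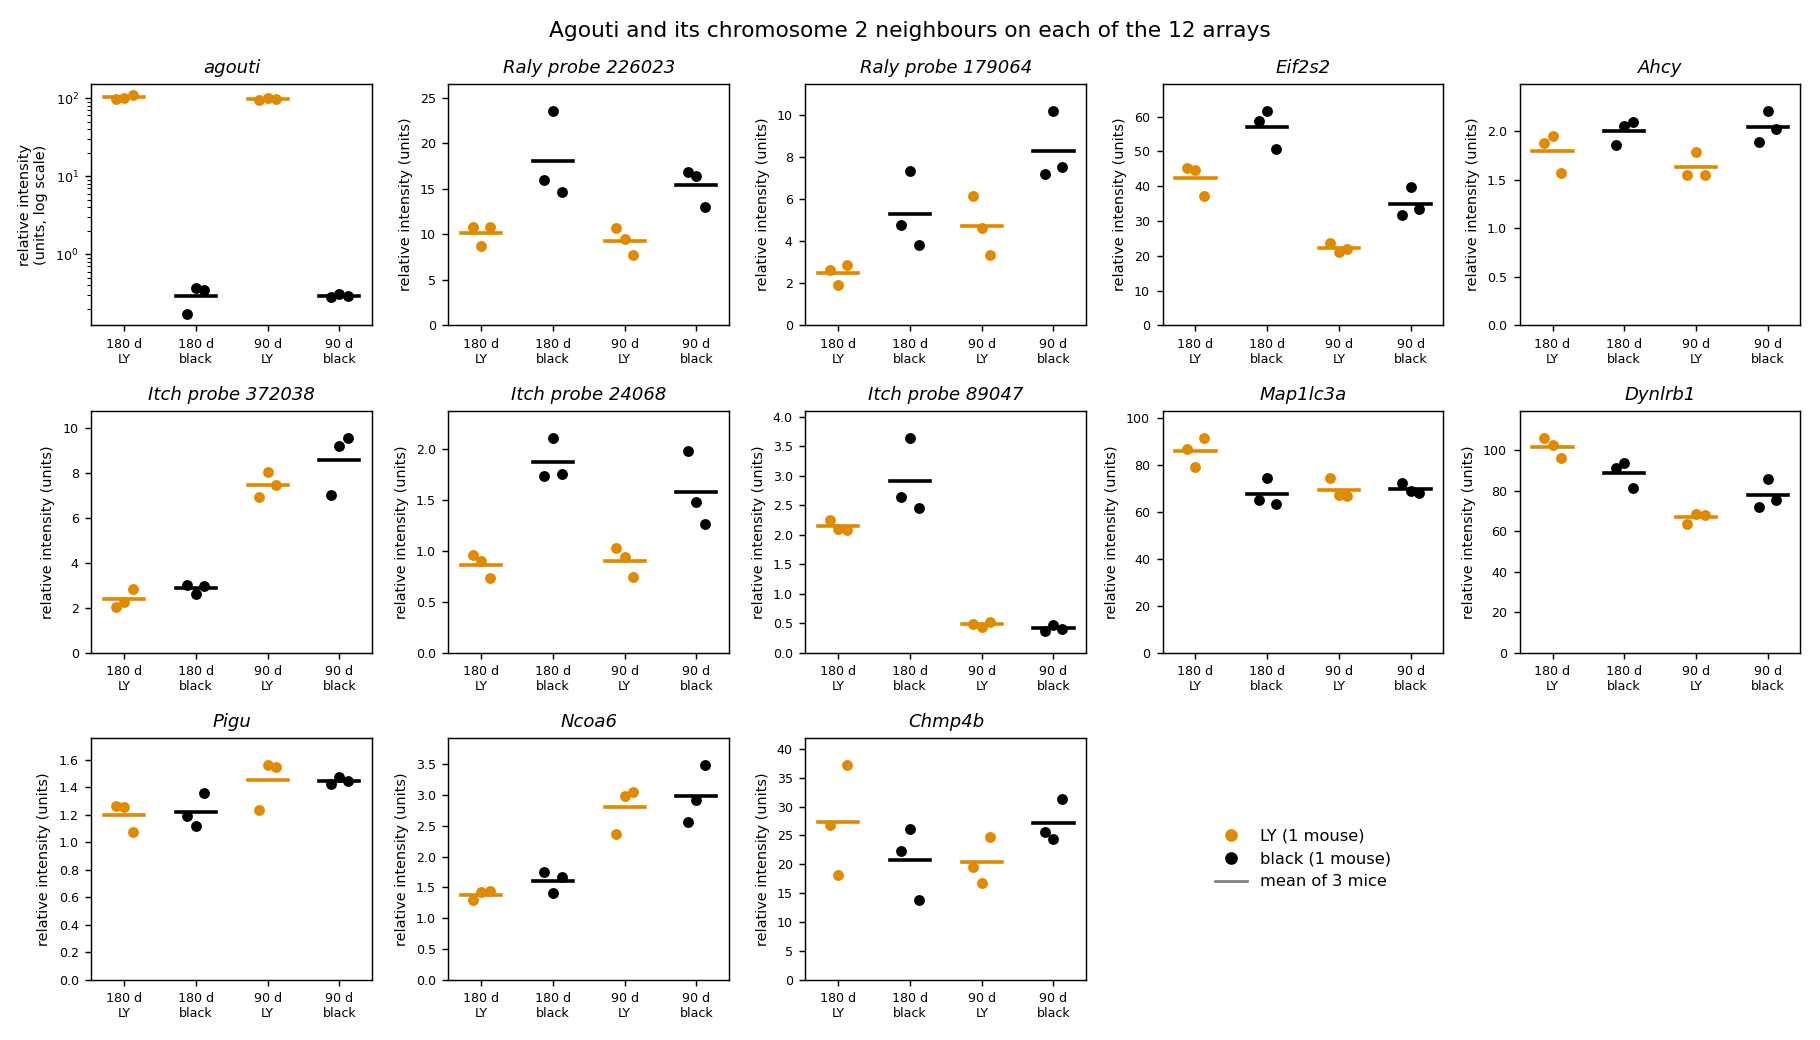
Relative intensity of the 13 probes of agouti and its neighbours on each of the 12 arrays, on a linear axis from 0 except for agouti, which is on a log axis. Points are single mice (LY in orange, black in black) and lines are means of 3 mice. Agouti lay between 95.7 and 111 units in LY ovaries and between 0.169 and 0.368 units in black ovaries, while both Raly probes, Eif2s2 and Itch probe 24068 were lower in every LY ovary than in any black ovary of the same age.

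The mean level of agouti was 103 ± 7.36 units in 180-day LY ovaries and 0.294 ± 0.109 units in 180-day black ovaries (SD, n = 3 each), a ratio of 350.5. At 90 days it was 97.2 ± 1.79 units in LY ovaries and 0.295 ± 0.0165 units in black ovaries (SD, n = 3 each), a ratio of 329.8. One 180-day black ovary lay under the limit of 0.2 units and the other 5 black ovaries lay between 0.280 and 0.368 units, so the black level is close to the lowest that the arrays can measure and the ratio is known less well than the LY level. The LY values were not at the top of the scale, since the highest value on the LY arrays lay between 275.8 and 323.9 units. The mean levels ran 180-day LY, 90-day LY, 90-day black and 180-day black from high to low, and the values of neighbours of the same genotype in this order overlapped.

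Differences between LY and black ovaries were fitted with limma on the log2 scale over all 12 arrays and 31359 probes, and p-values were adjusted over all of those probes with the Benjamini-Hochberg method. Each p-value rests on the spread between mice, 3 per group. Agouti differed by a log2 value of 8.53 at 180 days (SE 0.24, 95% interval 8.01 to 9.05, limma adjusted p = 7.95e-08) and of 8.37 at 90 days (SE 0.24, 7.84 to 8.89, adjusted p = 9.74e-08). Averaged over the ages, the log2 difference was 8.45 (SE 0.17, adjusted p = 2.39e-09). It had the lowest p of all probes tested in each of these comparisons. The change in its log2 difference between 180 and 90 days was 0.17, with a 95% interval of -0.57 to 0.90 (adjusted p = 0.887). Without the 180-day black mouse at 0.169 units the log2 difference at 180 days was 8.17, and the change between the ages was -0.19 in place of 0.17.

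Agouti was the only 1 of the 10 genes that passed the adjusted threshold of 0.05 at 180 days, where 0.0446% of all probes passed. The same held at 90 days, with a background of 0.0446%, and for the average over ages, with a background of 0.00638%. Of the 10 genes, 0 passed for a change of the difference with age, as did 0.0% of all probes, although 12.1% of all probes and 2 of the 10 genes had an unadjusted p under 0.05 in that limma fit and up to 223 probes were called under another setting. An unadjusted limma p under 0.05 was reached by 4 of the 10 genes at 180 days, where 3753 of the 31359 probes reached it, by 5 at 90 days, where 13.3% of all probes reached it, and by 5 averaged over ages, where 13.0% did. Of the 10 genes, each by its brightest probe, 6 were estimated as lower in LY ovaries at 180 days and 9 at 90 days. Their median log2 difference was -0.10 at 180 days and -0.20 at 90 days, and over all probes tested it was 0.03 and 0.00.

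A second way to read the neighbours is to ask whether the 3 LY values lay clear of the 3 black values. Among all 13 probes, 5 were lower in every LY ovary than in any black ovary at 180 days, where 8.36% of all probes were, and 6 were lower in this way at 90 days, where 9.56% were. At both ages 4 of the 13 probes were lower without overlap, namely both Raly probes, Eif2s2 and 1 of the 3 Itch probes, against 0.903% of all probes. In the other direction, 3 of the 13 probes (agouti, Map1lc3a and Dynlrb1) were above all black values at 180 days, where 14.2% of all probes were, and agouti alone at 90 days, where 6.9% were, or at both ages, where 1.04% were. Of the 4 lower probes, 3 belong to the genes that Ay disrupts or removes, and their limma p-values did not pass the adjusted threshold.

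Raly, an RNA-binding protein of the hnRNP family, read lower in LY ovaries on both of its probes. The brighter probe (226023) read 10.9, 8.77 and 10.8 units in 180-day LY ovaries, against 15.9, 23.6 and 14.6 units in 180-day black ovaries. At 90 days it read 10.7, 9.51 and 7.75 units in LY ovaries, against 16.9, 16.5 and 13.0 units in black ovaries. No LY value reached the lowest black value at either age, and the black ovary at 23.6 units stood above the other 5.

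The means of this probe were 10.2 ± 1.20 units in LY and 18.1 ± 4.85 units in black ovaries at 180 days, and 9.33 ± 1.50 units in LY and 15.5 ± 2.10 units in black ovaries at 90 days (SD, n = 3 each), which gave ratios of 0.562 and 0.603. The log2 difference averaged over ages was -0.77 (SE 0.14, 95% interval -1.07 to -0.46, limma adjusted p = 0.0880), the 70th lowest p of the 31359 probes. The interval holds -1, which is the log2 value of a level of 0.5. The change of the difference with age was -0.07, with an interval of -0.68 to 0.54.

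The dimmer Raly probe (179064) read 2.63, 1.92 and 2.89 units in 180-day LY ovaries, against 4.79, 7.32 and 3.80 units in 180-day black ovaries. In 90-day ovaries it read 6.14, 4.62 and 3.36 units in LY and 7.18, 10.2 and 7.52 units in black mice. The LY values again lay below all black values of the same age, and unlike the brighter probe this one was higher at 90 than at 180 days in both genotypes. Its log2 difference averaged over ages was -0.95 (SE 0.20, interval -1.39 to -0.51, limma adjusted p = 0.123).

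Eif2s2 encodes the beta subunit of eIF2, the factor that brings the initiator tRNA to the ribosome, and lies wholly within the deletion. Its probe (398069) read 45.3, 44.7 and 37.1 units in 180-day LY ovaries, against 58.7, 61.8 and 50.8 units in 180-day black ovaries. In 90-day ovaries it read 23.7, 21.0 and 21.9 units in LY and 31.8, 39.8 and 33.3 units in black mice. The groups did not overlap at either age, and levels were lower on the 90-day arrays in both genotypes.

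Mean Eif2s2 was 42.4 ± 4.58 units in LY and 57.1 ± 5.65 units in black ovaries at 180 days, and 22.2 ± 1.37 units in LY and 35.0 ± 4.27 units in black ovaries at 90 days (SD, n = 3 each). The log2 difference was -0.43 at 180 days (limma adjusted p = 0.226) and -0.65 at 90 days (adjusted p = 0.0822). Averaged over ages it was -0.54 (SE 0.09, interval -0.73 to -0.35, adjusted p = 0.0755), which is 0.686 of the black level. This interval does not hold -1, whereas those of both Raly probes do. That depended on the scaling for Eif2s2, since with quantile normalization its log2 difference was -1.07 at 90 days and -0.72 averaged over ages.

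Each probe was also tested alone, without borrowing spread from other probes, by an exact two-sided permutation test. Genotype labels were permuted within each age, which allows 400 assignments and a smallest p of 0.005. Of the 13 probes tested, agouti, both Raly probes, Eif2s2 and Itch probe 24068 reached that smallest exact p of 0.005, unadjusted. Any probe without overlap in the same direction at both ages must reach this p, so it restates the separation given above. Of all probes, 0.903% were lower and 1.04% were higher in that way. Ahcy had an exact p of 0.015, and the other 7 probes had exact permutation p-values between 0.06 and 0.97. At a single age, 3 mice against 3 cannot give a two-sided exact p under 0.1.

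**Figure D2:**
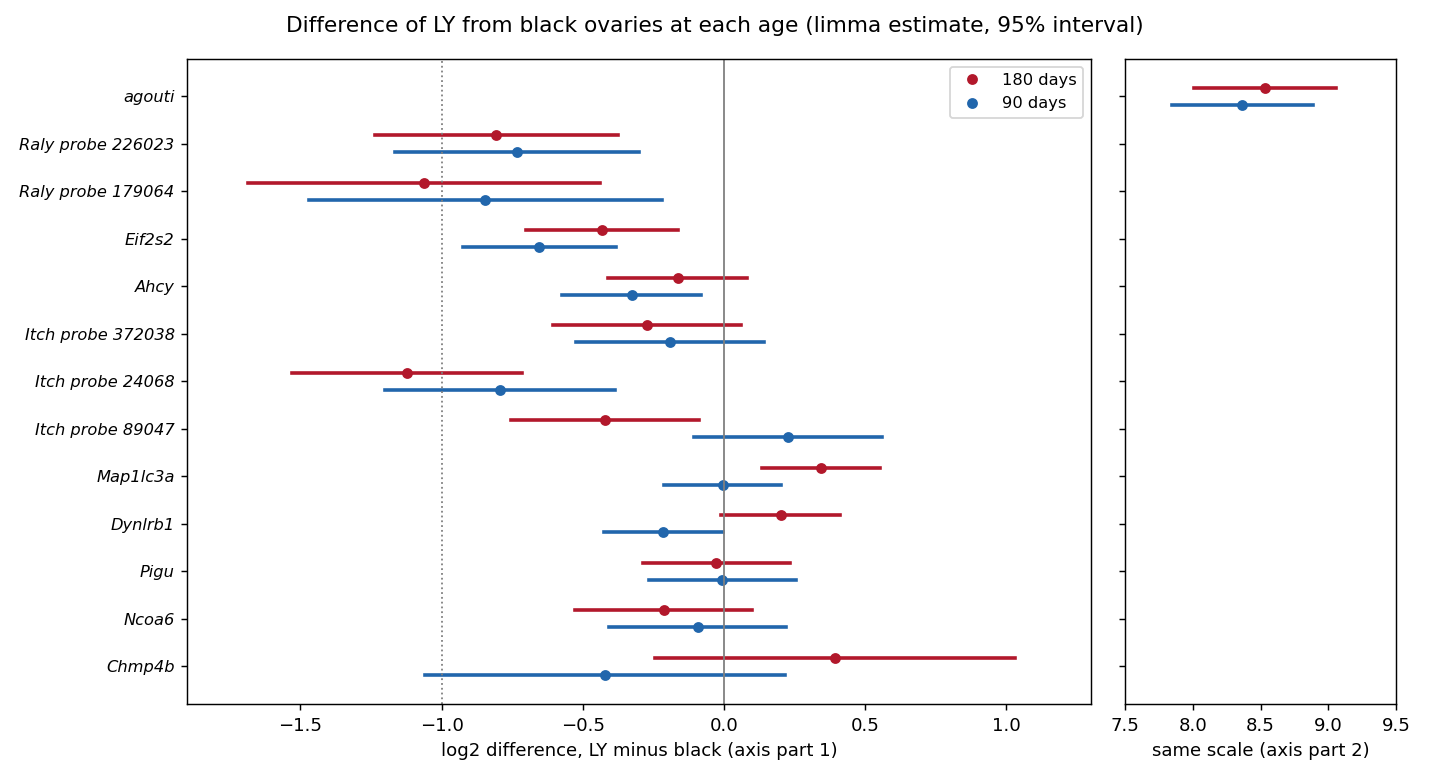
Log2 difference of LY from black ovaries for each of the 13 probes at 180 days (red) and at 90 days (blue), as limma estimates with 95% intervals from 3 mice per group, with agouti on a second stretch of the same axis. The dotted line marks -1, a level of 0.5. It lies inside the intervals of both Raly probes and of Itch probe 24068 at both ages. At 90 days it also lies inside that of Chmp4b (-1.06 to 0.22). It lies outside those of Eif2s2, whose 90-day estimate was -1.07 with quantile normalization, which is not plotted.

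The nearest neighbours beyond agouti were Ahcy and Itch. Ahcy encodes S-adenosylhomocysteine hydrolase, which removes the by-product of methylation reactions. Its probe read 1.87, 1.95 and 1.56 units in 180-day LY ovaries, against 1.86, 2.05 and 2.10 units in 180-day black ovaries, and these overlapped. At 90 days the LY values of 1.55, 1.79 and 1.55 units lay under the black values of 1.89, 2.21 and 2.03 units. The log2 difference averaged over ages was -0.25 (interval -0.42 to -0.07, limma adjusted p = 0.248).

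Itch encodes an E3 ubiquitin ligase of the HECT class whose loss causes the itchy mouse, a mutant first seen through an inversion that also struck agouti. Its 3 probes did not behave alike. The brightest (372038) averaged a log2 difference of -0.23 over ages (interval -0.47 to 0.00, adjusted p = 0.393 in limma), and its LY and black values overlapped at 90 days (6.91, 8.07 and 7.45 units in LY and 7.02, 9.21 and 9.58 units in black ovaries). At 180 days it overlapped too, with 2.05, 2.27 and 2.85 units in LY and 3.03, 2.60 and 2.96 units in black ovaries.

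The second Itch probe (24068) had the lowest p of the neighbours' probes at 180 days and averaged over ages, while at 90 days Eif2s2 had it. It read 0.955, 0.896 and 0.730 units in 180-day LY ovaries, against 1.74, 2.11 and 1.76 units in 180-day black ovaries. At 90 days it read 1.03, 0.943 and 0.740 units in LY ovaries, against 1.98, 1.48 and 1.27 units in black ovaries. All LY ovaries lay below all black ovaries, across ages as well as within them.

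Its mean was 0.860 ± 0.117 units in LY and 1.87 ± 0.211 units in black ovaries at 180 days, and 0.903 ± 0.147 units in LY and 1.58 ± 0.367 units in black ovaries at 90 days (SD, n = 3 each). The log2 difference was -1.12 at 180 days (SE 0.18, limma adjusted p = 0.0791) and -0.79 at 90 days (adjusted p = 0.125). Averaged over ages it was -0.96 (SE 0.13, interval -1.25 to -0.67, adjusted p = 0.0556), the 9th lowest p of all probes tested. This value passed the threshold in 5 of 9 alternative settings and in 0 of the 12 fits that left out 1 mouse. Itch lies outside the Ay deletion, and where in the Itch transcript each probe binds is not given in the annotation used here.

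The third Itch probe (89047) read 2.25, 2.10 and 2.08 units in 180-day LY ovaries and 2.64, 3.64 and 2.45 units in 180-day black ovaries, so LY was lower there without overlap. At 90 days it read 0.481, 0.439 and 0.520 units in LY and 0.364, 0.468 and 0.401 units in black ovaries, which overlapped. Between the 2 array sets this probe and the brightest one ran in opposite directions, since the brightest was at 6.91 to 9.58 units on the 90-day arrays and at 2.05 to 3.03 units on the 180-day arrays. The change of its log2 difference with age was -0.65 (interval -1.12 to -0.18, limma adjusted p = 0.248).

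Among the neighbours farther along the chromosome, Dynlrb1 and Map1lc3a read above the black ovaries in 180-day LY ovaries, and neither passed the adjusted threshold. Dynlrb1, a light chain of the dynein motor, read 106.3, 102.8 and 96.2 units in 180-day LY ovaries, against 91.1, 93.6 and 81.3 units in 180-day black ovaries. At 90 days the order was turned, with 63.7, 68.7 and 68.1 units in LY and 71.8, 85.8 and 75.6 units in black ovaries. The groups did not overlap at either age. LY higher at 180 days and lower at 90 days, both without overlap, was found for 1.82% of all probes.

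The log2 difference of Dynlrb1 was 0.20 at 180 days (interval -0.01 to 0.41, limma adjusted p = 0.441) and -0.21 at 90 days (interval -0.43 to 0.00, adjusted p = 0.367). The change between the ages was 0.42 (interval 0.12 to 0.71) and did not pass the threshold (adjusted p = 0.242). Map1lc3a encodes LC3A, a protein of autophagosome membranes. Its probe read 87.1, 79.0 and 91.7 units in 180-day LY ovaries, against 65.3, 74.5 and 63.6 units in 180-day black ovaries. In 90-day ovaries it read 74.6, 67.1 and 67.0 units in LY and 72.2, 69.0 and 67.9 units in black mice, so LY ovaries were above black ovaries without overlap only on the 180-day arrays. The log2 difference was 0.34 at 180 days (interval 0.13 to 0.55, adjusted p = 0.216) and 0.00 at 90 days (interval -0.21 to 0.20, adjusted p = 0.992).

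The outermost genes of the set showed no separation of LY from black ovaries at either age. Pigu, a subunit of the GPI transamidase, read 1.08 to 1.26 units in 180-day LY and 1.12 to 1.36 units in 180-day black ovaries, and 1.23 to 1.56 units in 90-day LY and 1.42 to 1.47 units in 90-day black ovaries. Ncoa6, a coactivator of nuclear receptors, read 1.29 to 1.44 units in 180-day LY and 1.41 to 1.76 units in 180-day black ovaries, and 2.36 to 3.05 units in 90-day LY and 2.57 to 3.49 units in 90-day black ovaries. Chmp4b, a subunit of the ESCRT-III membrane remodelling complex on the Raly side, read 18.1 to 37.2 units in 180-day LY and 13.8 to 26.1 units in 180-day black ovaries, and 16.8 to 24.8 units in 90-day LY and 24.5 to 31.3 units in 90-day black ovaries. All of these ranges overlapped. The log2 differences averaged over ages were -0.02 for Pigu (interval -0.20 to 0.17), -0.15 for Ncoa6 (interval -0.38 to 0.07) and -0.02 for Chmp4b (interval -0.47 to 0.44). The interval of Pigu is the narrowest of the 3, and all of them lie above -1. At 90 days alone the interval of Chmp4b was -1.06 to 0.22, which holds -1.

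To see how far from agouti such differences reached, 66 other genes within 2 Mb of it were examined, of which 64 had a tested probe. Averaged over ages 0 of the 64 passed the adjusted threshold, while 3 higher and 10 lower genes had an unadjusted limma p under 0.05, to be read against 13.0% of all probes. By age, there were 8 higher and 5 lower genes at 180 days, and 5 higher and 14 lower genes at 90 days, against 3753 of the 31359 probes and 13.3% of all probes. The 4 with the lowest p were Nol4l (log2 difference -0.68, adjusted p = 0.0678), Pdrg1 (2.50, adjusted p = 0.0755), Tm9sf4 (-0.73, adjusted p = 0.129) and Bpifb6 (-1.59, adjusted p = 0.149). All of them lie on the Raly side of agouti. At 90 days Nol4l passed (log2 difference -1.19, adjusted p = 0.0344), with 1.20, 1.32 and 1.84 units in LY and 3.47, 3.18 and 3.13 units in black ovaries. At 180 days it read 2.01, 2.25 and 2.14 units in LY and 2.59, 2.42 and 2.24 units in black ovaries, which overlapped, and the change of its difference with age did not pass (adjusted p = 0.107). The median log2 difference of the 64 genes averaged over ages was -0.04. Among the 64 genes, Tm9sf4, Bpifb6 and Dlgap4 were lower in LY ovaries without overlap at both ages, where 0.903% of all probes were. At 180 days Tm9sf4 was close to the limit of 0.2 units. It read 0.142, 0.171 and 0.272 units in LY and 0.394, 0.348 and 0.289 units in black ovaries there. Pdrg1 was higher without overlap at both ages, where 1.04% of all probes were.

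**Figure D3:**
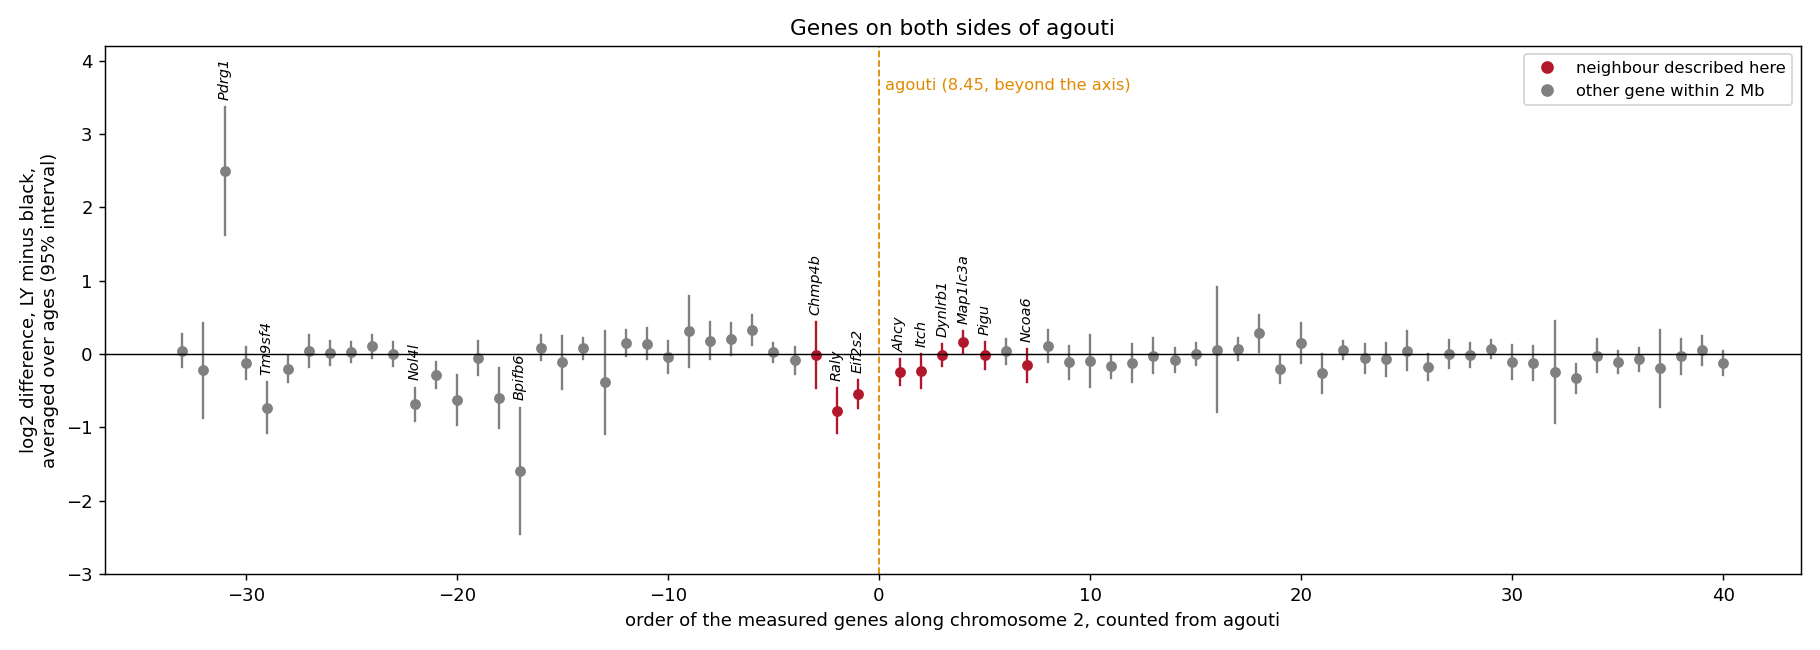
Log2 difference of LY from black ovaries averaged over ages, with 95% limma intervals from 6 LY and 6 black mice, for the neighbours of agouti (red) and other genes within 2 Mb (grey), by their order along chromosome 2 counted from agouti (dashed line, whose own value of 8.45 is beyond the axis). Raly and Eif2s2 lie below 0 directly beside agouti, and Pdrg1 at 2.50 is the highest of the others.

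Agouti protein acts by blocking melanocortin receptors and needs attractin (Atrn) and mahogunin (Mgrn1) to do so in the coat. Of 11 genes of this signalling system, 10 were tested and 0 passed the adjusted threshold in any comparison, while unadjusted limma p-values under 0.05 numbered 1 at 180 days (3753 of the 31359 probes), 2 at 90 days (13.3% of all probes) and 2 averaged over ages (13.0%). The 5 with the lowest p averaged over ages were Mrap, Mc3r, Mgrn1, Mrap2 and Atrn. Mrap, an accessory protein that carries the ACTH receptor to the cell surface, read 64.4, 58.7 and 69.1 units in 180-day LY ovaries, against 35.0, 38.6 and 32.1 units in 180-day black ovaries, and these did not overlap. At 90 days the order was turned, with 32.5, 30.4 and 40.9 units in LY and 44.4, 49.7 and 42.2 units in black ovaries. The log2 difference of Mrap was 0.86 at 180 days (limma adjusted p = 0.0512) and -0.40 at 90 days (adjusted p = 0.231), and the change between the ages was 1.27 (adjusted p = 0.0704). Averaged over ages, the log2 differences were 0.13 for the receptor gene Mc3r (adjusted p = 0.378), -0.15 for Mgrn1 (adjusted p = 0.432), 0.15 for Mrap2 (adjusted p = 0.448) and -0.11 for Atrn (adjusted p = 0.588). Of the other receptor genes, Mc2r, the ACTH receptor, had a log2 difference of 0.17 (interval -0.29 to 0.62), and Mc1r, Mc4r and Mc5r had 0.02 to 0.13. Mean Mc2r reached the limit of 0.2 units only in 180-day LY ovaries (0.208 units), and it was tested through that group alone. It was 0.172 units in 180-day black, 0.143 units in 90-day LY and 0.133 units in 90-day black ovaries. Mc1r and Mc3r had 2 tested probes each and Mc4r had 3, and only the brightest of each is given. Pomc, the precursor of the melanocortins, had 0.23 (interval -0.29 to 0.75). The intervals of all 5 hold 0.

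Markers of pigment cells, the cells on which agouti acts in the coat, were measured as well. The pigment cell marker Mlana was under the limit of 0.2 units on all 12 arrays, between 0.0230 and 0.112 units, the pigment enzyme Tyr read 0.266 to 0.504 units, and Pmel, a protein of pigment granules, read 1.43 to 2.70 units. The summed pigment cell markers (4 of 4 listed) ranged from 3.15 to 3.35 units in 180-day LY and 2.71 to 3.10 units in 180-day black ovaries, and from 2.36 to 2.85 units in 90-day LY and 2.01 to 2.45 units in 90-day black ovaries, mostly from Pmel. The part of this in the agouti values was not tested. Summed fat cell markers (4 of 5 with a probe) overlapped, with 24.4 to 26.6 units in 180-day LY and 18.9 to 39.6 units in 180-day black ovaries, and 9.41 to 37.2 units in 90-day LY and 12.4 to 57.1 units in 90-day black ovaries. Lep is too dim to move this sum. At 180 days it read 0.223 to 0.442 units in LY and 0.00189 to 0.0800 units in black ovaries, without overlap. Its log2 difference there was 3.05 (limma adjusted p = 0.307), with all black values under the limit of 0.2 units. Lep overlapped at 90 days, and Adipoq, Fabp4 and Cidec overlapped at both ages. Adrenal markers (2 of 3 with a probe), where Mrap is abundant too, summed to 0.602 to 0.762 units in 180-day LY and 0.454 to 0.561 units in 180-day black ovaries, and oviduct markers (2 of 2) to 1.67 to 1.84 units in 180-day LY and 1.54 to 4.24 units in 180-day black ovaries. At 90 days they summed to 0.439 to 0.640 units in LY and 0.392 to 0.427 units in black ovaries, and to 2.59 to 3.05 units in LY and 3.80 to 5.89 units in black ovaries. Both adrenal markers were dim. Mean Cyp21a1 was above the limit of 0.2 units only in 90-day LY ovaries (0.225 units), and Cyp11b2 read 0.281 to 0.612 units. Each of them overlapped between LY and black ovaries at both ages. Neither passed the adjusted threshold at either age (limma adjusted p = 0.369 to 0.723). The oviduct sum of 1.67 units in a 180-day LY ovary was Ovgp1 alone, because its Foxj1 value was missing. The part of these markers in the differences of Mrap and the neighbours was not tested.

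The probes most like agouti and most like Raly across the 12 arrays were found after taking out the mean of each age. The genes most like agouti were Ccser1 (Pearson r = 0.920), 1700012P22Rik (r = 0.920) and Mtmr12 (r = 0.919), among 18885 probes compared over 12 arrays. They differed far less than agouti, with log2 differences averaged over ages of 0.26, 0.38 and 0.37. The genes most like Raly were Rab22a (r = 0.968), Adamts10 (r = 0.953) and Trim41 (r = 0.938), among 18884 probes over 12 arrays, with log2 differences of -0.38, -0.63 and -0.49. Rab22a is also on chromosome 2. These values are descriptions of likeness over arrays that share 4 groups.

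How near Raly, Eif2s2 and Itch probe 24068 came to the threshold depended on the processing, whereas agouti passed it under each limma setting. Raly by its brighter probe passed in 3 of 10 alternatives, of which 1 that did not pass took the mean of both probes instead. The limma adjusted p was 0.0480 with values set to at least 0.2 units, 0.0251 with probes of at least 1 unit and 0.0298 with a trended, robust limma prior. Eif2s2 passed in the same 3 alternatives, with limma adjusted p-values of 0.0423, 0.0208 and 0.0151. Without any 1 of the 12 mice neither passed, with limma adjusted p-values of 0.0956 to 0.219 for Raly and 0.0947 to 0.208 for Eif2s2. Both log2 differences stayed below 0 in all of these fits.

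**Figure D4:**
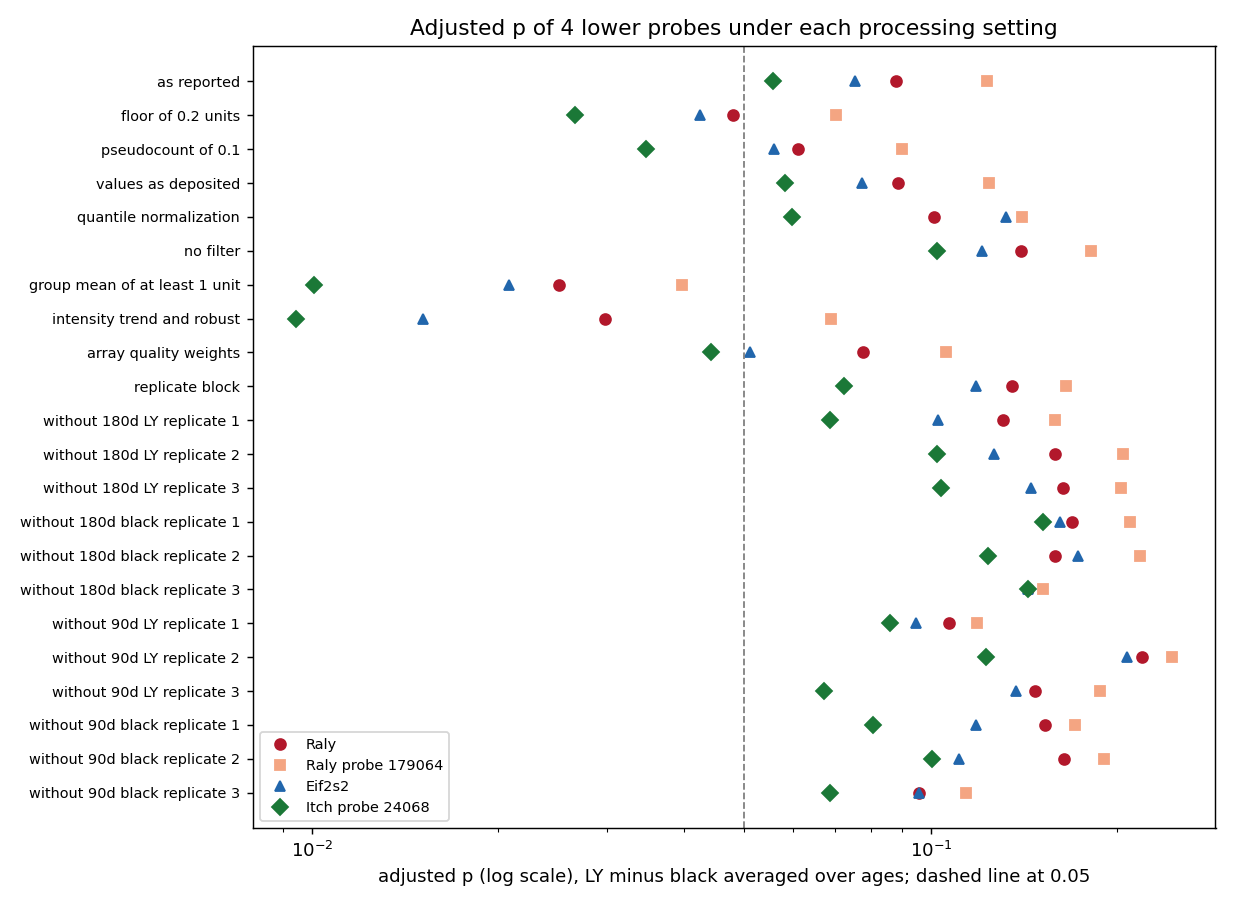
Adjusted p-value from limma (log axis) of the averaged LY minus black difference for both Raly probes, Eif2s2 and Itch probe 24068 under the reported setting, 9 alternative settings and each fit without 1 mouse, with a dashed line at the threshold of 0.05. The reported values lie between 0.0556 and 0.123, and the points left of the line all come from alternative settings, none from a fit without 1 mouse.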

How the data were processed

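Total RNA of each whole ovary was labelled and hybridized to its own one-colour CodeLink mouse array of 36227 probes. The authors scanned with GenePix, subtracted background in the CodeLink software and used GeneSpring to set each slide to its median, and the deposited table is read as linear relative intensity, with array medians of 1.00 at 180 days and 1.04 at 90 days. The scale and direction are not stated in the table. The genome build behind the probes is not given in the sources used here.

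Here values were scaled to a median of 1 per array, floored at 0.01 units and put on the log2 scale. Arrays lacked 166 to 503 values, and 80.8% to 83.3% lay at or above 0.2 units. Arrays of a group correlated at 0.970 to 0.987. The 31359 probes whose mean reached 0.2 units in any group were tested. Among the probes 21615 have 1 gene name, 681 several and 13931 none, and 3 probes that name a member together with another gene were not used. limma 3.58.1 in R 4.3.3 fitted 4 group means without covariates (8 residual and 2.46 prior degrees of freedom). Adjustment was by Benjamini-Hochberg, and adjusted p under 0.05 counted as a call. A gene with several probes was counted by its probe of highest mean log2 value. The fit was tested on simulated data. The number of arrays, 3 per group, limits the precision.

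The members, the lists of regional and signalling genes and the cell markers were chosen with earlier results of these data known. Named in the text are all members, regional genes past the threshold and the 4 of lowest p, signalling genes past the threshold and 5 others by p, and the 3 probes most like agouti and Raly. Other genes and values named were chosen after their values were seen. Replicate numbers did not pair the mice (correlation of same-numbered deviations -0.07 to 0.15), so no block was used.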

Additional observations from a re-analysis of the deposited data

Results flagged for a closer look

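Dynlrb1 stood out because its LY values lay above all black values at 180 days and below all black values at 90 days. The change of its log2 difference between the ages was 0.42, and limma did not call it (adjusted p = 0.242). Opposite directions without overlap at the 2 ages were found for 2.24% of all probes. The 2 ages were measured as separate array sets, and the part of this in the change was not tested.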

How the results depend on the processing

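With 3 mice per group, a probe near the threshold can change sides. Agouti passed in each of 12 fits without 1 mouse at 180 days, at 90 days and averaged over ages, and no other member probe passed in any of them. Replicate numbers do not pair the mice. With the replicate block 1 member passed at 180 days, at 90 days and averaged over ages, where 0.00957%, 0.00638% and 0.00319% of all probes did. For the change with age 0 members and 0.0% of all probes passed. All probes called with the block numbered 3 at 180 days against 14 without it.

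Without adjustment, the methods' t-test on unlogged intensities called 3 members at 180 days (agouti, Eif2s2, Map1lc3a), where 13.4% of all probes were called. At 90 days it called 4 (agouti, Raly, Eif2s2, Ahcy), where 8.89% were. After Benjamini-Hochberg it called 0 at 180 days, as with 0.0% of all probes. Agouti had a log2 ratio of 8.45 there and an adjusted p of 0.0659. The mean of all probes of a gene gave 2 at 180 days, agouti and Itch, where 0.0948% of all genes and probes tested were called. At 90 days 2 members (agouti, Eif2s2) passed with values set to at least 0.2 units, with probes of at least 1 unit, or with a trended, robust prior. Of all probes 0.421%, 1.23% and 0.603% passed there. Averaged over ages 3 members passed in these settings (agouti, Raly, Eif2s2), against 0.179%, 0.656% and 0.364% of all probes. The same settings called 2, 3 and 1 of the regional genes averaged over ages, to be read against the same shares of all probes. A pseudocount of 0.1 called 1, against 0.0446% of all probes. Fits without 1 mouse called 0 to 1 (Pdrg1 without 180-day black replicate 2, Nol4l without 90-day LY replicate 3). Those 2 fits called 0.00955% and 0.0191% of all probes.

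Signs turned only for estimates whose interval held 0. Quantile normalization gave a change with age of -0.21 for agouti, 0.0491 for Map1lc3a at 90 days, 0.0944 for Dynlrb1 averaged, and 0.0151 and 0.000236 for Pigu at 90 days and averaged. Array weights gave 0.015 for Dynlrb1 averaged, and 0.0569 and 0.0207 for Pigu at 90 days and averaged, and the methods' t-test 0.00224 for Pigu at 90 days. Without 1 mouse the change with age ranged from -0.19 to 0.37 for agouti, -0.21 to 0.14 for Raly, -0.44 to 0.0417 for the dimmer Raly probe, -0.22 to 0.0587 for Itch and -0.13 to 0.0573 for Pigu. Differences ranged from -0.0562 to 0.0215 for Map1lc3a, -0.0648 to 0.105 for Pigu and -0.20 to 0.0241 for Ncoa6 at 90 days, -0.0908 to 0.0513 for Pigu at 180 days, and -0.0379 to 0.0294 for Dynlrb1, -0.0484 to 0.0390 for Pigu and -0.15 to 0.12 for Chmp4b averaged. The cause was not tested.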

Other observations

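Pdrg1, which lies on the Raly side toward the far end of the 2 Mb examined, fell into high and low values with 1 exception to the genotypes. Its probe read 10.8, 11.4 and 10.6 units in 180-day LY ovaries, against 1.62, 10.4 and 1.76 units in 180-day black ovaries. In 90-day ovaries it read 6.40, 7.45 and 7.18 units in LY and 0.746, 0.655 and 0.955 units in black mice. The second 180-day black mouse was thus at 10.4 units, just under the 180-day LY range, while the other 5 black mice were at or below 1.76 units. The same mouse had the highest reading of the brighter Raly probe, 23.6 units. Its agouti reading was 0.368 units, where LY ovaries of both ages read 95.7 to 111 units. Pdrg1 had the 2nd highest log2 difference averaged over ages of all probes tested, after agouti. Averaged over ages, Pdrg1 did not pass the adjusted threshold of limma in the reported fit (adjusted p = 0.0755). Without the second 180-day black mouse it passed, as the only regional gene in that fit. With all mice it also passed with values set to at least 0.2 units, together with Nol4l. It passed as well with probes of at least 1 unit, together with Tm9sf4 and Nol4l.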
